A study of Homo sapiens with 5 samples.

Results

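The zinc finger genes of chromosome 19 were taken as all windows of the deposited methylation table that lie on this chromosome and carry a gene symbol made of ZNF and digits only. They were 1168 windows of 1000 bases, assigned to 229 genes, of 288391 windows in all. The windows come from reduced representation bisulfite sequencing (RRBS), which enriches CpG-rich fragments with a restriction enzyme and reads the share of cytosine calls that bisulfite left unconverted. This share, the methylation level or β-value, is given here in percent. The cells were human induced pluripotent stem cells (iPSCs) of the line 201B7, labelled as wild type, and every group was kept for 48 h with its agent. The paper's screen and methylation array used iPSCs carrying a fluorescent methyl-CpG-binding domain (mCherry-MBD-nls). Its RRBS methods do not say whether the cells carried it. The vehicle control received 0.1% DMSO. The other groups received 1 nM etoposide, an inhibitor of topoisomerase II, 1 µM propyl gallate, an antioxidant, 1 µM theophylline, an inhibitor of phosphodiesterases, or 10 nM 5-aza-dc, which traps DNA methyltransferases. Each of the 5 groups is 1 library of a single cell line, so no difference between groups can be set against a spread between replicates. Of the promoter windows of genes that should be unmethylated in pluripotent cells, those of LIN28A had a mean level of 2.76% in the vehicle control, whereas those of POU5F1 had 90.5%, of DPPA2 81.3% and of ZFP42 60.9%, and NANOG, DPPA4 and TDGF1 had none measured. Whether a window covers the start these genes use in iPSCs was not tested. The promoter window of the pancreatic gene INS was at 93.4%, and ALB, PTPRC and MYH7, markers of other cell types, had none.

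Most of these genes encode KRAB zinc finger proteins, which read DNA through arrays of C2H2 zinc fingers and recruit the corepressor TRIM28 through their KRAB domain. TRIM28 brings the histone methyltransferase SETDB1 and other silencing factors to the bound site, and many of these sites are transposable elements. The genes multiplied by tandem duplication and lie in large clusters on chromosome 19, where their starts are often CpG islands and their finger-coding last exons carry repressive chromatin. Among the longest open reading frames of the protein-coding transcripts of 228 of the 229 genes, the number of C2H2 fingers had a median of 12.5 and reached 39 in ZNF729.

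The sequences around 5 gene starts show what the promoter measurements rest on. They run from 250 bases before to 50 bases after the RefSeq start on GRCh38.p14, 5′ to 3′ on the strand of the gene, and the capitals mark CG, the dinucleotide whose cytosine is methylated. ZNF534, a repressor of endogenous retroviruses, is shown because the window holding its start was methylated in all libraries (chr19:52428898-52429197, plus strand). ZNF154 is shown as a start with almost no methylation (chr19:57709155-57709454, minus strand). ZNF91 and ZNF93 are paralogs that repress retrotransposons, and their starts differed in level (chr19:23395422-23395721, minus strand and chr19:19900696-19900995, plus strand). ZNF574 held the window called with 5-aza-dc (chr19:42068227-42068526, plus strand).
ZNF534: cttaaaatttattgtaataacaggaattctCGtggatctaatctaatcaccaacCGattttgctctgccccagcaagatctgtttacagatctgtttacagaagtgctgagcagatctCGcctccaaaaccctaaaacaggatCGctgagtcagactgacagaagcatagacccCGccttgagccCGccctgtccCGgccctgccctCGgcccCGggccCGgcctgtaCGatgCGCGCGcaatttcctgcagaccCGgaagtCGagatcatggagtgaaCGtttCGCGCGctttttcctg
ZNF154: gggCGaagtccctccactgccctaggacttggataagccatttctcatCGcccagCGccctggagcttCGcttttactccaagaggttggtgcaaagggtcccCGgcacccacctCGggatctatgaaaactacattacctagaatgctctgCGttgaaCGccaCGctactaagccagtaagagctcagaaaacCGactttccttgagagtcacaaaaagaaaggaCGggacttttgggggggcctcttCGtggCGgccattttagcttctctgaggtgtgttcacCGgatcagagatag
ZNF91: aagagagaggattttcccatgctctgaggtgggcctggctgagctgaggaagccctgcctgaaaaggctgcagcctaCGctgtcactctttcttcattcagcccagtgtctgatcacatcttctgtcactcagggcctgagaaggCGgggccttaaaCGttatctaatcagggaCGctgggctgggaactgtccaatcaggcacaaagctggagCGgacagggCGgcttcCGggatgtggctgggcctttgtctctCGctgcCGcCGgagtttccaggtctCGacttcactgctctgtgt
ZNF93: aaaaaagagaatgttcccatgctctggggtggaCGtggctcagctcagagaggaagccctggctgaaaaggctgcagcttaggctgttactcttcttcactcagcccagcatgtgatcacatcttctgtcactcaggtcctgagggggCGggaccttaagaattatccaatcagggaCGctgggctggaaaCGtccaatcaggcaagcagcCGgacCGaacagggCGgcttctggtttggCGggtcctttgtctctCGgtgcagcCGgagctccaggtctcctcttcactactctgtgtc
ZNF574: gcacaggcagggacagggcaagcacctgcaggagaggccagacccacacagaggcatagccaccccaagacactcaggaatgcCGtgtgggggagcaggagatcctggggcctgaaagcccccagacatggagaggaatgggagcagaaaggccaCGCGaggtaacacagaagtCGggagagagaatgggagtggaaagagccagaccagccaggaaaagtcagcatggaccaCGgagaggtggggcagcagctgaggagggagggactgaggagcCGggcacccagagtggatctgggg

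The window with the start of ZNF534, which has 20 CG in these 300 bases, was at 95.1% in the vehicle control, 94.2% with etoposide, 94.4% with propyl gallate, 95.5% with theophylline and 94.6% with 5-aza-dc, with at least 2389 calls in each. The window with the start of ZNF154, with 14 CG, was at 0.17%, 0.73%, 0.755%, 0.65% and 0.696% in the same order. ZNF534 was therefore methylated and ZNF154 unmethylated in every library, although both windows are labelled CpG islands. The start of ZNF91, with 11 CG, was at 36.3% in the vehicle control (95% Wilson interval 32.8 to 39.9, 714 calls), and that of ZNF93, with 10 CG, at 8.79% (4.52 to 16.4, 91 calls). The shown sequences of ZNF91 and ZNF93 were identical in 83.3% of 305 aligned columns, and ZNF91 was the higher of the pair in every library. ZNF93 was at 7.95% with etoposide, 0% with propyl gallate, 2.88% with theophylline and 8.57% with 5-aza-dc. ZNF91 was at 39.2%, 30.9%, 50.8% and 27.9%, the widest spread among libraries of these 5 starts after ZNF574.

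Of the 229 genes, 200 had a RefSeq promoter of the same symbol, and 124 of those promoters overlapped a measured window of their gene that is labelled promoter. The 93 of these in windows under 10% held a median of 21 CG per 300 bases, the 21 in windows from 10% to 70% a median of 18 and the 10 in windows of 70% or more a median of 15.5, with ranges that overlap (8 to 40, 6 to 34 and 8 to 49). The level of a promoter is that of 1 overlapping window, which can hold only part of the 300 bases. For ZNF274 it is the upstream window, at 56.5% in the vehicle control. The CG count and the level can thus refer to different bases. Over all 35116 RefSeq promoters the median was 14. The letters CCGG, the cut site of MspI, read the same on both strands and contain CG. They were present in 91.5% of the 200 zinc finger promoters and in 63.1% of all promoters of that length. The zinc finger genes entered only with a window measured in all libraries, whereas the 35116 promoters were not required to be measured. The comparisons of CG and CCGG with all promoters therefore do not set like with like. ZNF534 held 4 CCGG, ZNF91, ZNF93 and ZNF154 held 2 each and ZNF574 held 1.

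The zinc finger promoters were mostly unmethylated, their gene bodies and 3UTR windows mostly methylated. In the vehicle control the 236 promoter windows of 165 genes had a mean level of 32.0% and a median of 3.96%. The 485 gene-body windows of 171 genes had a mean of 74.2% and a median of 91.5%, and the 63 windows labelled 3UTR (3′ untranslated region), of 52 genes, a mean of 88.6% and a median of 92.9%. Promoter windows fell into separate levels, with 132 under 10%, 37 from 10% to 70% and 67 at 70% or more. Of the 3UTR windows, 59 were at 70% or more and 2 under 10%. The 106 windows from 1 to 5 kb upstream and the 277 intergenic windows assigned to these genes averaged 85.8% and 84.6%.

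These levels were near the same in each library. The promoter mean was 31.8% with etoposide, 32.3% with propyl gallate, 32.4% with theophylline and 30.8% with 5-aza-dc. The gene-body mean was 74.5%, 74.9%, 75.03% and 73.1% in the same order, and the 3UTR mean 89.3%, 89.5%, 90.1% and 87.9%. In all 3 classes 5-aza-dc gave the lowest mean and theophylline the highest. The order of the classes was the same in the 5 libraries. Of the promoter windows, 215 of 236 stayed in 1 of the 3 level ranges (under 10%, 10% to 70%, 70% or more) in all libraries, as did 464 of 485 gene-body windows and 60 of 63 3UTR windows.

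**Figure D1:**
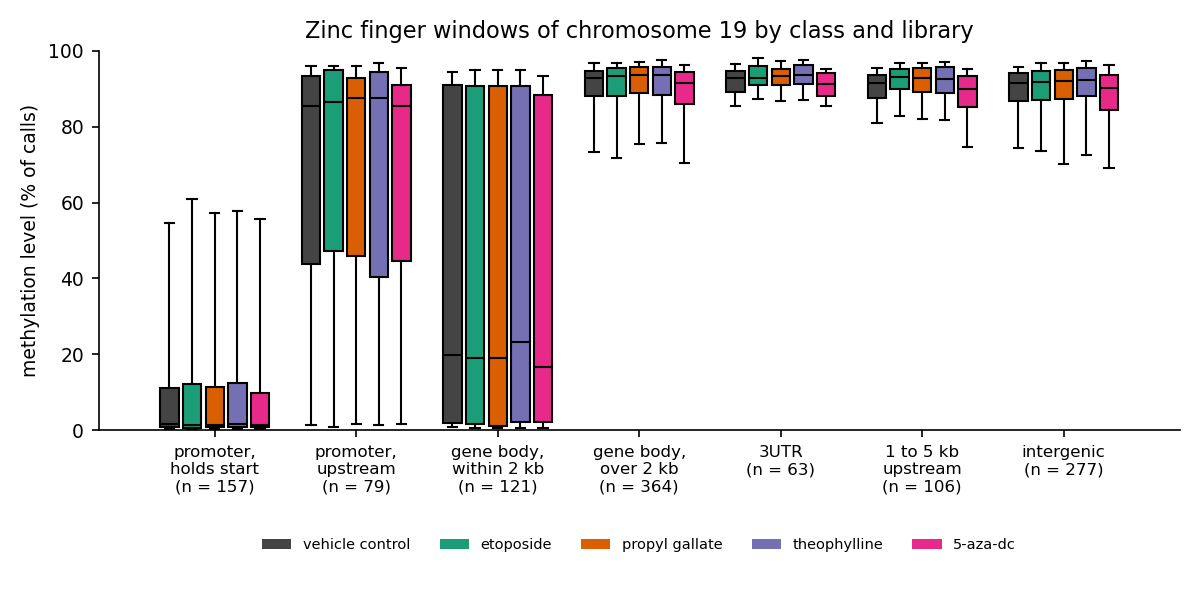
Methylation level (y axis, percent of calls) of the zinc finger windows of chromosome 19 by class (x axis) in the 5 libraries (colours). Boxes give the quartiles and the median, whiskers the 10th and 90th percentiles; windows holding a start have medians near 0, and gene-body windows over 2 kb from the start, 3UTR, upstream and intergenic windows have medians near 90% in each library.

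The same genes showed the step. Of 37 genes with both classes measured, 33 had a higher mean in the 3UTR than in the promoter in the vehicle control, with a mean gap of 53.0 percentage points (SD 34.5 over genes). Of 125 genes with a gene-body and a promoter window, 102 had the higher level in the gene body, with a mean gap of 38.5 points (SD 40.8). Across the other libraries the 3UTR was higher in 32 to 35 of the 37 genes and the gene body in 100 to 103 of the 125. Genes are not replicates of a condition, so no test is attached to these counts. The classes also lie at different distances from the start.

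Within the promoter and gene-body classes the level differed with the distance from the start. The 157 promoter windows that hold a start averaged 14.5% in the vehicle control, with a median of 1.73%, and 116 of them were under 10%. The 79 promoter windows just upstream averaged 66.7%. In the 69 genes with both, the upstream window was higher in 58 in the vehicle control and in 57 to 59 in the other libraries, by a mean of 49.1 points in the vehicle control. ZNF611, a gene with binding to SVA retrotransposons, had 0.881% at its start and 98.8% in the next window upstream. ZNF610 had 1.51% and 98.3%, and ZNF808, a repressor with a role in pancreas development, 0.581% and 85.0%. ZNF44 had 2.34% and 96.8%, and ZNF766 had 9.95% and 90.2%. The promoter means of ZNF611, ZNF610, ZNF766 and ZNF44, which lie near 50%, thus average a low window and a high one. Gene-body windows within 2000 bases of the start averaged 41.0% over 121 windows, and those beyond averaged 85.3% over 364.

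Set beside other genes of the chromosome, the mean of the zinc finger starts was lower and that of the zinc finger 3UTR windows higher. Windows holding a start averaged 14.5% in the zinc finger genes of chromosome 19, 14.5% in those of other chromosomes (135 windows), 34.6% in other genes of chromosome 19 (850 windows) and 36.4% in all other windows (18443). Windows labelled 3UTR averaged 88.6%, 84.9%, 77.8% and 78.9% in these sets. Within CpG islands alone the zinc finger promoters of chromosome 19 averaged 24.3%, the other genes of this chromosome 25.1%, zinc finger genes elsewhere 14.4% and all other windows 19.2%. Promoter windows labelled as lying outside islands, shores and shelves averaged 33.2% over 30 zinc finger windows of chromosome 19, 30.5% over 20 zinc finger windows elsewhere and 79.1% over 8479 other windows. The start of ZNF93 and those of ZNF587 (1.38%) and ZNF671 (1.99%) are among such windows with little methylation. Windows are not independent samples, so these sets are described without a test, and their make-up by gene type was not matched.

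A minority of starts was methylated. Of the 157 windows holding a start, 14 were at 70% or more in the vehicle control and 27 between 10% and 70%. A start can fall at the edge of its window, so some of these windows lie mostly upstream. Among genes with at least 30 calls per promoter window in all libraries, the 10 highest promoter means were those of ZNF14 (96.0%), ZNF547 (96.0%), ZNF723 (94.9%), ZNF556 (94.2%), ZNF708 (94.1%), ZNF534 (93.9%), ZNF709 (93.0%), ZNF473 (92.8%), ZNF177 (91.5%) and ZNF99 (91.4%). ZNF541 had a mean of 96.6%, with an upstream window that rested on 22 calls with 5-aza-dc and fell short of this minimum. For ZNF14, ZNF547 and ZNF473 only an upstream window was measured, so their starts themselves were not seen. In the other 7 of the 10 genes the window with the start was itself methylated in all libraries. The start of ZNF723 was at 95.9%, 91.9%, 92.8%, 97.4% and 94.5% in the order vehicle control, etoposide, propyl gallate, theophylline and 5-aza-dc. That of ZNF709 was at 93.0%, 92.8%, 92.2%, 93.0% and 90.2%, and that of ZNF99 at 91.4%, 92.2%, 93.1%, 92.6% and 89.8%. None of these 3 starts left the range above 89% in any library.

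Other starts were at intermediate levels. ZNF443 had a start at 49.6% in the vehicle control, 45.1% with etoposide, 54.2% with propyl gallate, 57.7% with theophylline and 48.3% with 5-aza-dc. Here, unlike in ZNF611 or ZNF44, the level near 50% belongs to 1 window (chr19:12441001-12442000). The start of ZNF443, at 12441021 on the minus strand, lies near the edge, so most of this window is upstream. Whether it mixes a low and a high stretch was not tested. ZNF132, whose promoter is often methylated in tumours, had a start at 57.2%, 61.1%, 62.5%, 57.2% and 56.2%. Outside the rule for named genes, and chosen after their values were seen, the start of ZNF726 was at 40.3%, 41.1%, 44.9%, 36.5% and 39.7%, in the same cluster as ZNF91. The starts of ZNF114 (46.7% in the vehicle control and 33.5% with 5-aza-dc) and ZNF441 (81.0% and 66.9%) were chosen in the same way. The start of ZNF441 is the last base of its window, so this level is that of the bases upstream. The symbol ZNF724 covers 2 gene identifiers of the table, with starts at 0.551% and 43.7% in the vehicle control.

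The clusters along the chromosome differed in how many starts were methylated. Genes less than 500000 bases apart were joined, which gave 10 clusters of at least 5 genes with 217 genes, and 12 genes outside them. In the cluster from 43.5 to 44.5 Mb, with 21 genes from ZNF575 to ZNF180, 9 of 10 start windows were under 10% and 0 at 70% or more, and the promoter mean was 3.81% in the vehicle control. In the cluster from 19.7 to 24.1 Mb, with 36 genes from ZNF101 to ZNF254, 16 of 30 start windows were under 10% and 4 at 70% or more, and the promoter mean was 44.9%. ZNF91, ZNF93, ZNF99, ZNF708, ZNF723, ZNF724 and ZNF726 belong to this cluster. The promoter means of these clusters in the other libraries were 1.61% to 3.57% for the first and 42.5% to 45.4% for the second. The 38 genes from ZNF264 to ZNF446, at 57.2 to 58.5 Mb, had 23 of 27 start windows under 10%, and the 37 genes from ZNF175 to ZNF331, at 51.6 to 53.6 Mb, had 20 of 25. The 5 genes from ZNF554 to ZNF77, at 2.82 to 2.94 Mb, had the highest promoter mean, 60.2%, from 8 windows, of which 4 hold a start. Promoter means mix start windows with upstream windows, in shares that differ between clusters. Start windows alone averaged 47.9% in this cluster, 24.7% from ZNF101 to ZNF254 and 3.28% from ZNF575 to ZNF180 in the vehicle control.

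Grouped by the number of fingers, promoter levels had no order with the size of the array. Genes with 10 to 14 fingers had a mean promoter level of 24.96% (70 genes), those with 5 to 9 fingers 31.1% (35 genes), those with 15 or more 30.3% (54 genes) and those with fewer than 5 fingers 28.8% (6 genes). ZNF534 has 14 fingers, ZNF93 16 and ZNF91 32 by this count. From the fewest to the most fingers, the 3UTR means were 79.9% (7 genes), 86.3% (18 genes), 90.9% (14 genes) and 91.0% (13 genes), while the medians were 90.4%, 93.7%, 92.5% and 91.7% and kept no such order.

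A few 3UTR windows were not methylated. ZNF766 was at 6.80% in its 3UTR window in the vehicle control (5.42 to 8.51, 1029 calls) and at 6.07%, 6.47%, 6.65% and 6.51% in the other libraries. ZNF580 was at 9.38% (7.60 to 11.5, 853 calls) and at 7.12%, 8.19%, 10.1% and 8.29%. Both windows are labelled CpG islands, as is that of ZNF787, which was at 57.1%, 56.9%, 58.1%, 59.3% and 60.0%. ZNF557 was at 69.7% in the vehicle control. ZNF765 completed the 5 lowest at 80.0%, but this rested on 20 calls (58.4 to 91.9), and the window was at 100%, 100%, 100% and 98.3% in the other libraries. The 10 3UTR windows in islands averaged 72.4%, against 92.0% for the 38 outside islands, shores and shelves.

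Among the 8 repressors of transposable elements, 4 had a promoter mean under 10%, 3 between 10% and 70% and 1 at 70% or more. The median was 25.8%, against 11.5% over the 165 genes with a promoter window. These means mix start and upstream windows in shares that differ between genes, so the medians do not compare levels at the start. ZNF417 (3.87%), ZNF587 (1.38%), ZNF649 (2.41%) and ZNF93 (8.79%) were low. ZNF417 and ZNF587 are near copies that bind HERV-K, and reads of such copies may be hard to place. ZNF808 (42.8%), ZNF611 (49.8%) and ZNF91 (64.9%) had 1 low or intermediate start and 1 methylated upstream window each. At the start alone ZNF808 was at 0.581%, ZNF611 at 0.881% and ZNF91 at 36.3%. ZNF534 (93.9%) was methylated in both windows.

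Of the 11 genes whose promoters are often methylated in tumours, 10 were measured and 8 had a promoter window, with a median of 10.8%. ZNF154 (0.17%), ZNF471 (1.27%) and ZNF382 (5.43%) were under 10%, ZNF835 (10.5%), ZNF667 (11.2%), ZNF671 (40.8%) and ZNF132 (57.2%) between 10% and 70%, and ZNF177 (91.5%) above. ZNF671 was low at its start (1.99%) and high upstream (79.5%). The start of ZNF835 was at 2.57% in the vehicle control, 6.43% with etoposide, 8.74% with propyl gallate, 9.095% with theophylline and 5.34% with 5-aza-dc, with at least 2000 calls in each. All 4 chemicals stood above the vehicle control there, the lowest of the 5 libraries and shared by the 4 comparisons, by less than 10 points, with adjusted p from 2.54e-18 with theophylline to 1.5e-05 with 5-aza-dc by Fisher's exact test on pairs of libraries. ZNF577 and ZNF781 had windows in other classes only, and ZNF582 was not analysed here.

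Among genes with other known roles, ZNF274, which recruits SETDB1 to the 3′ ends of zinc finger genes, had a start at 0.674% in the vehicle control and 0.735% with 5-aza-dc. Its upstream promoter window was at 56.5%, 56.3%, 61.2%, 64.0% and 45.6%. The start of ZNF224 was at 4.05%, 3.51%, 0%, 1.18% and 0.694%, from as few as 48 calls with etoposide. ZNF175 and ZNF331 had no promoter window.

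The class means differed from the vehicle control by at most 1.41 points. In promoter windows the mean difference from the vehicle control was -0.142 points with etoposide (95% counting interval -0.383 to 0.098), 0.341 with propyl gallate (0.097 to 0.585), 0.401 with theophylline (0.138 to 0.665) and -1.13 with 5-aza-dc (-1.39 to -0.866). With calls pooled over the promoter windows, the differences were 0.563 points with etoposide, 1.23 with theophylline and -1.71 with 5-aza-dc, so the sign for etoposide depended on the averaging. Gene-body windows gave 0.272, 0.650, 0.798 and -1.09 points, and -2.79 for 5-aza-dc with calls pooled. The 3UTR windows gave 0.676, 0.865, 1.41 and -0.783 points, and the intervals for etoposide (-0.195 to 1.55) and 5-aza-dc (-1.63 to 0.067) hold 0. The intervals cover counting error only, since each group is 1 library and cytosine calls of 1 read or of PCR copies are not independent.

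All other windows of the table had differences of about the same size. Their promoters differed by 0.274 points with etoposide, 0.281 with propyl gallate, 0.575 with theophylline and -0.972 with 5-aza-dc, and their 3UTR windows by 0.497, 0.410, 0.885 and -1.26. With 5-aza-dc 61.5% of the zinc finger windows were lower than the vehicle control, against 58.4% of all other windows. Among promoters averaging from 10% to 70% over the 5 libraries the 5-aza-dc difference was -3.00 points in 40 zinc finger windows (-3.89 to -2.11) and -3.05 in 3231 other windows. Among those at 70% or more it was -1.94 (-2.63 to -1.26) in 66 windows and -1.16 in 12842 others. Promoters under 10% stood at -0.136 (-0.306 to 0.034) and -0.251.

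Single windows rarely moved far. Fisher's exact test compared the calls of 2 libraries, not of 2 conditions, and a window was called at an adjusted p under 0.01 with a difference of at least 25 points. With etoposide 0 zinc finger windows were called higher and 0 lower, where 0.0999% and 0.0908% of all windows were called. With propyl gallate it was also 0 and 0, against 0.0936% and 0.0836%. At an unadjusted p under 0.05, 335 of the 1168 zinc finger windows differed with etoposide and 348 with propyl gallate, of which 1 each differed by 25 points or more. These were 28.7% and 29.8% of the zinc finger windows, against 30.3% and 30.4% of all windows, and the shares with 25 points or more were 0.0856% for both, against 0.342% and 0.302%. With theophylline 0 were called higher and 2 lower (background 0.106% and 0.0694%), and with 5-aza-dc 0 higher and 1 lower (background 0.0742% and 0.235%). At an unadjusted p under 0.05, 375 and 398 windows differed, of which 3 and 4 by 25 points or more. These were 32.1% and 34.1%, against 31.04% and 33.7% of all windows, and the shares with 25 points or more were 0.257% and 0.342%, against 0.288% and 0.509%. The windows called lower were an intergenic window of ZNF791, the upstream promoter window of ZNF256 and the start of ZNF574. The window of ZNF256 rested on 10 calls with theophylline, where it was at 16.7%, against 81.5%, 78.1%, 71.8% and 75.8% in the vehicle control, etoposide, propyl gallate and 5-aza-dc.

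With a difference of at least 10 points, 9 zinc finger windows were higher and 12 lower with etoposide, where 1.36% and 0.955% of all windows were called. With propyl gallate 11 were higher and 7 lower (background 1.34% and 0.879%), and with theophylline 13 and 10 (background 1.59% and 0.68%). With 5-aza-dc 8 were higher and 36 lower, or 0.685% and 3.08% of the zinc finger windows, against 0.874% and 2.76% of all windows. With etoposide, propyl gallate and theophylline 0.771%, 0.942% and 1.11% of the zinc finger windows were higher. The lower ones were 1.03%, 0.599% and 0.856%. The share of higher windows was thus below that of all windows with every chemical. The share of lower windows was above it with all but propyl gallate. The counts are small, and these differences in share were not tested. The 36 windows lower with 5-aza-dc belong to 32 genes. They are 10 of 236 promoter windows, 13 of 485 gene-body windows, 0 of 63 3UTR windows, 11 intergenic windows and 2 windows upstream of the promoter class. The 63 3UTR windows are few, so the count of 0 does not set them apart.

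The start of ZNF574, shown above with 6 CG, was at 29.1% in the vehicle control, 10.7% with etoposide, 17.3% with propyl gallate, 15.5% with theophylline and 3.12% with 5-aza-dc, from 138 to 185 calls. It was lower than the vehicle control with every chemical, with an adjusted p of 3.44e-09 for 5-aza-dc by Fisher's exact test on the 2 libraries. ZNF628 had its largest fall in a CpG island at an intron-exon boundary (chr19:55481001-55482000), at 66.6%, 61.2%, 61.3%, 58.4% and 42.0% in the same order, with at least 2284 calls each. The 5-aza-dc difference there was -24.6 points (Fisher's exact test, adjusted p = 7.82e-66), just short of the 25 points asked of a called window. A second boundary window of ZNF628 (chr19:55479001-55480000) was at 91.2% in the vehicle control and 70.2% with theophylline, and at 86.4% to 87.8% in the other libraries.

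The intergenic window called in ZNF791 (chr19:12597001-12598000), a CpG island upstream of the gene, was at 92.9%, 97.6%, 70.1%, 47.8% and 70.2%, with 70 to 140 calls. Its theophylline difference was -45.0 points with an adjusted p of 3.11e-11 by Fisher's exact test. An intron window of ZNF565 (chr19:36186001-36187000) went the other way, at 77.0% in the vehicle control and 92.3%, 92.9%, 89.2% and 95.2% with the chemicals, from at least 609 calls. The intergenic window of ZNF235 (chr19:44314001-44315000) was at 77.6%, 83.5%, 92.9%, 97.9% and 93.9%. In ZNF574, ZNF565 and ZNF235 the vehicle control was the library at the end of the range, so the 4 differences share 1 low or high value. The same held for both windows of ZNF628 and the upstream promoter window of ZNF649. It also held for the windows given below of ZNF557, ZNF333, ZNF180, ZNF737, ZNF492, ZNF443 and ZNF567. Of the windows named for their differences, only those of ZNF791, ZNF266, ZNF331 and ZNF600 had other libraries at both ends. The rule names windows by their difference from the vehicle control, which favours windows with that library at an end.

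The upstream promoter window of ZNF649, a repressor that binds LINE-1 elements, was at 4.52% in the vehicle control, 15.2% with etoposide, 7.05% with propyl gallate, 23.0% with theophylline and 8.84% with 5-aza-dc. It was the largest rise of a promoter by the rule for named windows, 18.4 points with theophylline (Fisher's exact test, adjusted p = 2.04e-05), while the start of ZNF649 stayed between 0.294% and 3.35%. An intron window of the imprinted gene ZNF331 (chr19:53553001-53554000) was at 54.3%, 58.0%, 49.1%, 36.4% and 66.9%, the theophylline library lowest and the 5-aza-dc library highest. The start of ZNF91 was 14.5 points higher with theophylline and 8.41 points lower with 5-aza-dc than in the vehicle control.

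The remaining windows named for their differences are given here. A window past the end of ZNF557 went from 100% in the vehicle control to 78.6% with etoposide, and one of ZNF333 from 97.5% to 82.7%. Windows of ZNF180 (86.4% to 100%) and ZNF600 (85.5% to 98.9%) were higher with etoposide. With propyl gallate an intron window of ZNF266 went from 96.6% to 81.5%, and it was at 83.8% with etoposide but 96.7% with theophylline. Intergenic windows of ZNF737 (89.9% to 75.7%) and ZNF492 (77.1% to 96.9%) also differed with propyl gallate. An intergenic window of ZNF443 was at 80.2% in the vehicle control and 100% with theophylline, and one of ZNF567 at 78.0% and at 98.3% with 5-aza-dc. Across the 5 libraries the median range of a promoter window was 3.11 points, of a gene-body window 5.46 and of a 3UTR window 6.11.

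The partners of KRAB zinc finger proteins and the enzymes that keep methylation, a list of 17 genes with TRIM28, SETDB1 and the DNA methyltransferases, were all measured, in 151 windows. Their 17 promoter windows had a median of 0.839%, a mean of 24.6% and a maximum of 96.9% in the vehicle control. At 10 points, 0 of the 151 windows were called higher with any chemical, and 2 were called lower with etoposide, 2 with propyl gallate, 1 with theophylline and 4 with 5-aza-dc. The lower calls were 1.32%, 1.32%, 0.662% and 2.65% of the 151 windows, near the 0.955%, 0.879%, 0.68% and 2.76% of all windows. Higher calls were 1.36%, 1.34%, 1.59% and 0.874% of all windows in the same order, shares at which few of 151 windows would be called. A gene-body window of DNMT3A was among them, from 102 to 152 calls, at -18.5 points with etoposide, -24.0 with propyl gallate and -24.1 with 5-aza-dc. The others lie in ZFP57, ATF7IP, UHRF1 and ATRX, and the ATRX window called at 25 points with etoposide rested on 20 calls there.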

How the data were processed

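The authors trimmed the RRBS reads with Trim Galore 0.5.0, aligned them with Bismark 0.20.0 to hg38 per the labels, summed CpG calls in windows of 1000 bases with methylKit 1.10.0, scaled the coverage and merged the 5 libraries. The deposited counts of the vehicle control are unscaled calls. The deposited values of the other libraries are a score: the authors rescaled the calls by 1.21 (5-aza-dc), 1.18 (etoposide), 1.15 (theophylline) or 1.09 (propyl gallate) and rounded them. The deposited β-value is a fraction computed by the authors from these. Gene, class and island labels are those of the deposited table, where each window belongs to 1 gene.

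The calls before scaling were recovered from the factors (at least 99.94% of coverages returned) and used for Wilson intervals and for a two-sided Fisher's exact test per window, adjusted by Benjamini-Hochberg over all 288391 windows. The test was checked on simulated data with independent calls. That check cannot show how the test behaves where calls share a read or come from PCR copies. Depth in the shared windows was 188844850 to 228919184 calls per library, and a zinc finger window had a median of 538 to 636 calls and a median 95% interval 4.07 to 4.61 points wide. Means of windows carry counting intervals from the binomial variance of their calls. Fingers were counted as the letters CNNC or CNNNNC, 12 letters, then a pair of H with a spacer, where N is any residue.

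The members, gene lists and thresholds were chosen with earlier results of these data known. Named genes are those with the 10 highest promoter means (with 30 or more calls per promoter window in all libraries), the 5 promoter means nearest 50%, the 5 lowest 3UTR means, up to 3 windows with the largest rise and fall per chemical (with as many calls in both libraries compared and an adjusted p under 0.01) and 3 gene lists. Alternatives changed the minimum of calls, the scaling, the averaging and the thresholds. Analyses used Python 3, numpy, pandas, scipy, numba, Biopython and matplotlib. Of the marker genes, 1 is not reported here.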

Additional observations from a re-analysis of the deposited data

How the results depend on the processing

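Of 125 recomputed values for 21 results, 93 stayed within the counting interval of the reported value or within 1.5 times a reported count. The other 32 moved. The 93 include 17 values under a limit of 1000 bases on the distance of promoter windows from their gene, which left every value unchanged. They also include vehicle levels and gaps with calls before scaling, which could not move because the vehicle control was unscaled. The vehicle means moved to 31.0% in promoters and 73.6% in gene bodies with at least 30 calls in all libraries, to 20.0%, 63.8% and 87.2% in promoters, gene bodies and 3UTR windows with calls pooled, to 28.1%, 67.9% and 87.9% as means of gene means, to 14.5% in promoter windows holding the start and to 85.3% in gene bodies over 2000 bases from it. With calls pooled within a gene, the gaps to the promoter rose to 60.2 points for the 3UTR and 41.5 for the gene body. Pooled promoter differences were 0.563 points for etoposide, the only change of sign, 1.23 for theophylline and -1.71 for 5-aza-dc, and the pooled gene-body difference was -2.79 for 5-aza-dc. Medians were 0.0871, 0.09999 and -0.23 in promoters and 0.406, 0.464 and -0.765 in gene bodies for propyl gallate, theophylline and 5-aza-dc. Gene-body windows over 2000 bases from the start gave 0.528 points for etoposide.

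Windows called at 25 points became 21, 18, 23 and 44 at 10 points for etoposide, propyl gallate, theophylline and 5-aza-dc, 1 for etoposide and 3 for 5-aza-dc with an adjusted p under 0.05, 2 for 5-aza-dc with calls as deposited, and 1 for theophylline with calls divided by 2 or with at least 30 calls. The call lost with at least 30 calls is that of ZNF256. Of the 24 named differences from the vehicle control, in 17 windows, 7 in 5 windows (ZNF565 with 3 chemicals, ZNF266, ZNF791, ZNF574 and ZNF628) kept an adjusted p under 0.01 with calls divided by 2, a stand-in for paired calls from 1 read, and 17 did not. Reads that hold more than 2 CG, and PCR copies, link more calls than this division allows for. With 1 library per condition, no difference can be told apart from variation between cultures or libraries. No paired analysis was possible because each condition has 1 library.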
